A study of Homo sapiens with 16 samples.

Results

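The long arms of chromosomes 1, 8 and 20 were examined for peaks of NF-κB subunit binding. A peak belonged to the set when it was at most 5 kb long and its summit lay in GRCh38 chromosome 1 between 145 and 248 Mb (1q), chromosome 8 between 46 and 145 Mb (8q) or chromosome 20 between 32 and 64 Mb (20q). Over 12 peak lists, 426717 of 6172657 peaks (6.91%) met this rule, of which 186504 lay on 1q, 192752 on 8q and 47461 on 20q. Each long arm was set against the short arm of its own chromosome in the same library, between 2 and 120 Mb on chromosome 1 (1p), 1 and 43 Mb on chromosome 8 (8p) and 1 and 25 Mb on chromosome 20 (20p), which held 391776 peaks. Chromatin immunoprecipitation and sequencing (ChIP-seq) with antibodies to RELA (p65), RELB and NFKB2 had been carried out on T47D, an established estrogen receptor-positive breast cancer line of the luminal A type. Cells carried lentiviral shRNA against DAB2IP (knockdown) or the empty vector (control), and both had gone through the same puromycin selection and double crosslinking, so the comparison is of 2 selected populations of a single line. There were 2 libraries for each antibody in each condition, 12 in all, and 4 input libraries that had no list of their own. Libraries that share condition and replicate number, 3 at a time, are called a preparation here, although the labels do not say which input entered which peak call or whether the 3 shared chromatin. Nothing in the labels says that replicates were separate cultures, so p-values measure only the spread between these samples.

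NF-κB is a family of transcription factors that dimerise and bind κB sites in DNA. RELA acts mainly in the canonical pathway, in which the IKK kinase complex releases dimers from IκB inhibitors, and RELB with NFKB2 in the noncanonical pathway. DAB2IP is a RasGAP, a protein that switches off Ras, and it restrains signalling towards NF-κB. Gains of 1q, 8q and 20q are among the most frequent chromosome changes in breast cancer, and these arms carry genes such as MDM4, which restrains p53, MYC, a growth-driving transcription factor, and ZNF217, a transcriptional regulator amplified in breast tumours. A peak caller sets the fragments at each summit against a local background estimated around it. The copy number of these arms in the cells used was not analysed here.

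Promoter sequences are shown for the genes where most libraries placed a summit and for genes of the NF-κB and breast cancer lists that had a peak on a promoter with a κB consensus motif. Each is the RefSeq promoter in GRCh38.p14, from 250 bases before to 50 bases after the annotated start, written 5′ to 3′ along the gene, and capitals mark matches to the κB consensus, searched on both strands. NOTCH2NLB, a Notch-related gene, had a summit in 5 libraries, the most of any promoter on 1q and 20q. FLAD1, which makes the cofactor FAD, PFDN4, a subunit of the prefoldin chaperone, GPR161, a receptor of the primary cilium, and PDE4DIP, a centrosome and Golgi anchor, had a summit in 4, and the sequences of FLAD1 and PFDN4 are shown to represent them. The SELE promoter, of E-selectin, an endothelial adhesion molecule and classical κB target, had peaks in 4 libraries, and its motif matched GGGGATTTCC. ELF3, an epithelial transcription factor, and CEBPB, a C/EBP family factor, had peaks in 2 libraries each, as did ZNF217. All of these were control libraries, and none of the peaks reached a q of at most 0.05. NCOA3, a coactivator of the estrogen receptor, also has a motif in its promoter, but 0 libraries had a peak there. Promoters of the same lists without a motif had peaks in 0 to 4 libraries, with 4 for E2F1 and 3 each for MYBL2 and an IL10 promoter. Their sequences are not shown. In CEBPB the capitals are a pair of overlapping matches.
NOTCH2NLB, chr1:148712485-148712784, minus strand: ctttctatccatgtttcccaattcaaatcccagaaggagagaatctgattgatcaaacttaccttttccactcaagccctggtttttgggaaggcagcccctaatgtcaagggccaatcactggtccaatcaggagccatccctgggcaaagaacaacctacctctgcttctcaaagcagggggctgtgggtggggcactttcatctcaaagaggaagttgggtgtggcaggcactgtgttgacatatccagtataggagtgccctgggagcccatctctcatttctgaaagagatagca
FLAD1, chr1:154983094-154983393, plus strand: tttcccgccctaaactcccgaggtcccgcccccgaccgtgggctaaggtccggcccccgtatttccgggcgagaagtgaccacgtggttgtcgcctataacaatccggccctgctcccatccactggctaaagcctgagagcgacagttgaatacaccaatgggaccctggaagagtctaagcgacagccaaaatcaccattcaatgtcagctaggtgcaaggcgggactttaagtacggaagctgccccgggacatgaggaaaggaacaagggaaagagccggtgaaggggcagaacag
PFDN4, chr20:54207837-54208136, plus strand: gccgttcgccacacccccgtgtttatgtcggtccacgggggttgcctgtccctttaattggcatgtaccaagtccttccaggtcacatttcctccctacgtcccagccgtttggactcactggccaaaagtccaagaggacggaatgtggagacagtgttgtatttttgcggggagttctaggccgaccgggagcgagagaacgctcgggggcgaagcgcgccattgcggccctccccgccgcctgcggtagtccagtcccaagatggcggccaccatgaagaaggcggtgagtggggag
SELE, chr1:169734030-169734329, minus strand: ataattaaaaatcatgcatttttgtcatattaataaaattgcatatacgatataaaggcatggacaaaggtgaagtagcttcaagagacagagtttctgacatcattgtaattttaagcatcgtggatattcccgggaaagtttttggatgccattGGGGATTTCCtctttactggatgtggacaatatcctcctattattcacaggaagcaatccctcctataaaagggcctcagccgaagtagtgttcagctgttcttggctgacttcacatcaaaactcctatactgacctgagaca
ELF3, chr1:202010337-202010636, plus strand: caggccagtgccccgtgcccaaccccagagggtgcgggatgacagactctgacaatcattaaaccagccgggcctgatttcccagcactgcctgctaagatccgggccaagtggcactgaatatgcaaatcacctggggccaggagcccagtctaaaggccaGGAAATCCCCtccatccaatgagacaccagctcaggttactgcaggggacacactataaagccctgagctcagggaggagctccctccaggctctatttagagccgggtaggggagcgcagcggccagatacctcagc
CEBPB, chr20:50190580-50190879, plus strand: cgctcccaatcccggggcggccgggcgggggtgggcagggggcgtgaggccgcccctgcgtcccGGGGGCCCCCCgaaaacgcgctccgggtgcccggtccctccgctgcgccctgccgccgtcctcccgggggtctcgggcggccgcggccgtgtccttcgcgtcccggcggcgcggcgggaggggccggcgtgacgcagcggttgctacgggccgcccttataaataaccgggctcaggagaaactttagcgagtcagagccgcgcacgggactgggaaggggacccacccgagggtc
ZNF217, chr20:53593790-53594089, minus strand: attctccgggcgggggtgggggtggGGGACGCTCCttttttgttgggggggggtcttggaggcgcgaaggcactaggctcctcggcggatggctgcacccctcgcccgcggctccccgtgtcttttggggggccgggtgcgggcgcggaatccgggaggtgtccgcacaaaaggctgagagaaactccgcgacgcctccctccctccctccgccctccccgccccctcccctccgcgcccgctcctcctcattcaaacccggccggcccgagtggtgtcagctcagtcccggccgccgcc

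Shares of promoters with the κB consensus were counted with and without summits, and no test was made on them. Of 22198 promoters of protein-coding genes in the table, 12.7% held a match. On 1q and 20q a match stood in 10.8% of 1395 promoters. It stood in 10.6% of the 943 promoters without a summit in any library, in 11.3% of the 433 with a summit in 1 or 2 libraries and in 2 of the 19 with a summit in 3 or more. The arms differed in order: on 1q the share was 11.0% of 737 promoters without a summit and 10.1% of 345 with a summit in 1 or 2 libraries, and on 20q 9.22% of 206 and 15.9% of 88. Most of these promoters (67.6%) had no summit in any list. Promoters of 8q were not analysed here. In the NOTCH2NLB promoter the summits rested on 3 to 5 fragments, and the fold enrichment (fragments over local background, each plus 1) was between 2.50 and 4.76. NOTCH2NLB belongs to a family of near-identical copies on 1q, so reads assigned to it could belong to another copy. SELE summits rested on 4 or 5 fragments with a fold enrichment of 1.86 to 2.53, and none of its peaks had a q below 1.

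Every summit with an unadjusted p of at most 0.05 was kept in the lists. Sequencing totals are unknown, but the fold enrichment and p-value of a peak together fix its fragment number and background, and whole fragment numbers were recovered for all peaks (within 0.002 on the -log10 p scale). Knockdown RELA replicate 1 and knockdown RELB replicate 1 had short lists of 105534 and 75078 peaks, against 517650 to 708764 in the other 10 libraries, and in these 2 the immunoprecipitate had been scaled down by the peak caller (to 0.910 and 0.982 of its fragments). Values are therefore given for all 12 libraries, and without these 2 where that changes a statement.

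The number of peaks per Mb did not set the long arms apart in a single direction. On 1q it was lowest in knockdown RELB replicate 1 at 30.4 peaks per Mb, with a median of 168 and a highest value of 209 in knockdown RELA replicate 2. On 1p the same libraries gave 22.8 to 292, with a median of 187. The density was higher on 1q than on 1p only in the 2 libraries with short lists, and the log2 ratio ran from -0.77 to 0.58 (mean -0.15 ± 0.42, SD, n = 12). On 8q the density was between 32.6 and 228 peaks per Mb with a median of 180, and on 8p between 20.5 and 246 with a median of 181. Here 7 of 12 libraries were higher on the long arm, with a log2 ratio between -0.45 and 0.80 (mean 0.05 ± 0.39, SD, n = 12). On 20q the density was between 25.8 and 164 with a median of 132, and on 20p between 22.7 and 268 with a median of 177. The long arm of chromosome 20 was the sparser in 10 of 12 libraries, with a log2 ratio between -0.82 and 0.18 (mean -0.30 ± 0.27, SD, n = 12).

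Exact two-sided permutation tests (sign flips of the 4 preparation means) gave p = 0.50 for 1q, p = 1.00 for 8q and p = 0.25 for 20q, in a design where no p below 0.125 is possible. The 2 short lists weighed on these means. Over the other 10 libraries the mean log2 ratio was -0.29 ± 0.31 on 1q and -0.39 ± 0.20 on 20q (SD, n = 10), below 0 in 10 of 10 libraries on both arms. On 8q it was -0.086 ± 0.25 (SD, n = 10), with 5 libraries above 0 and 5 below, and leaving out knockdown RELA replicate 1 or knockdown RELB replicate 1 alone turned its mean to -0.018 or -0.0062.

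**Figure D1:**
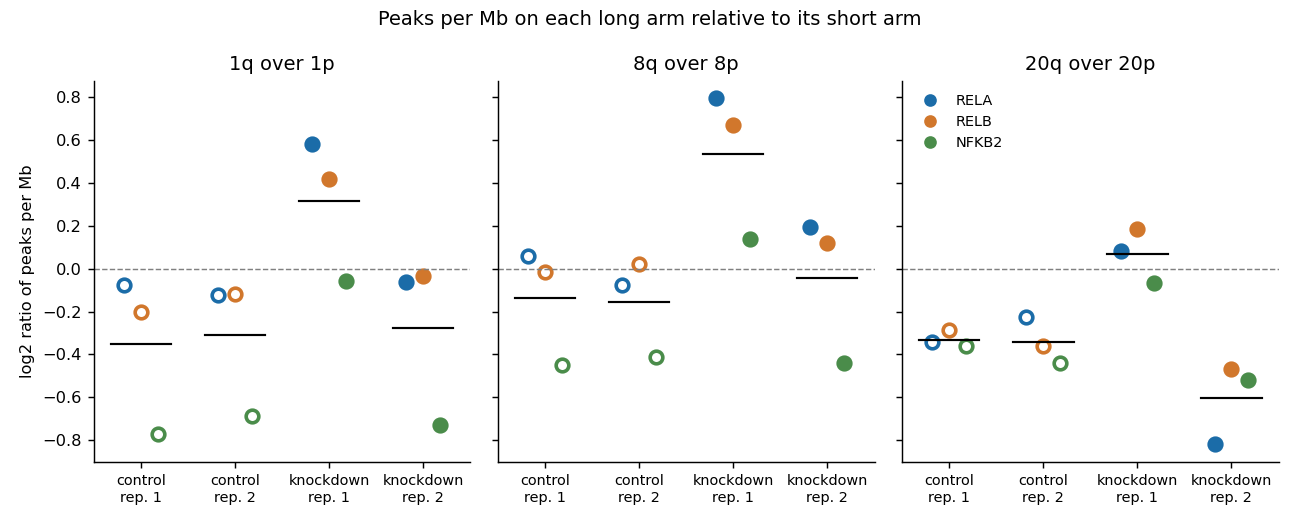
Each point is a library; the vertical axis is the log2 ratio of peaks per Mb on the long arm over its short arm, and the horizontal axis gives the preparation, with open points for control, filled points for knockdown and a bar at the mean of 3 libraries. Points fall on both sides of 0, NFKB2 points lie lowest on 1q and 8q, and the mean of knockdown replicate 1 lies above those of the other preparations.

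The background under the peaks was higher on the long arm in every library. In control RELA replicate 1, the median local background was 1.46 fragments on 1q and 0.752 on 1p, 1.39 on 8q and 0.738 on 8p, and 1.69 on 20q and 1.13 on 20p. Across the 12 libraries the median background on 1q was between 0.817 and 1.73 fragments (median 1.33), against 0.530 to 0.895 (median 0.750) on 1p. The 8q values were between 0.810 and 1.71 (median 1.32) and those of 8p between 0.530 and 0.810 (median 0.742). The 20q values were between 1.03 and 1.90 (median 1.40) and those of 20p between 0.701 and 1.26 (median 1.07).

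Within a library the background was thus 1.54 to 1.98 times as high on 1q as on 1p, 1.53 to 2.11 times on 8q as on 8p, and 1.304 to 1.564 times on 20q as on 20p. The mean log2 ratios were 0.83 ± 0.12, 0.83 ± 0.13 and 0.54 ± 0.09 (SD, n = 12). Libraries of a preparation may share an input, so the 12 values were not taken as independent in the test. All 12 libraries and all 4 preparation means lay above 0 for each arm, and the exact two-sided permutation p was 0.125, the smallest that 4 preparations can give. The 20q ratio was the lowest of the 3 arms in mean, and 20p itself had a higher background than 1p and 8p. The peak caller's background is known only at listed summits, so stretches without peaks are not in these values. Chromosome 8 depended on which summits were compared: among summits with at least 5 fragments the 8q over 8p log2 ratio was 0.079. On 8p the bins from 36 Mb to 43 Mb had 45.9% and 57.4% of their summits at 5 or more fragments in the median library, against 1.11% to 14.5% in its other bins.

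**Figure D2:**
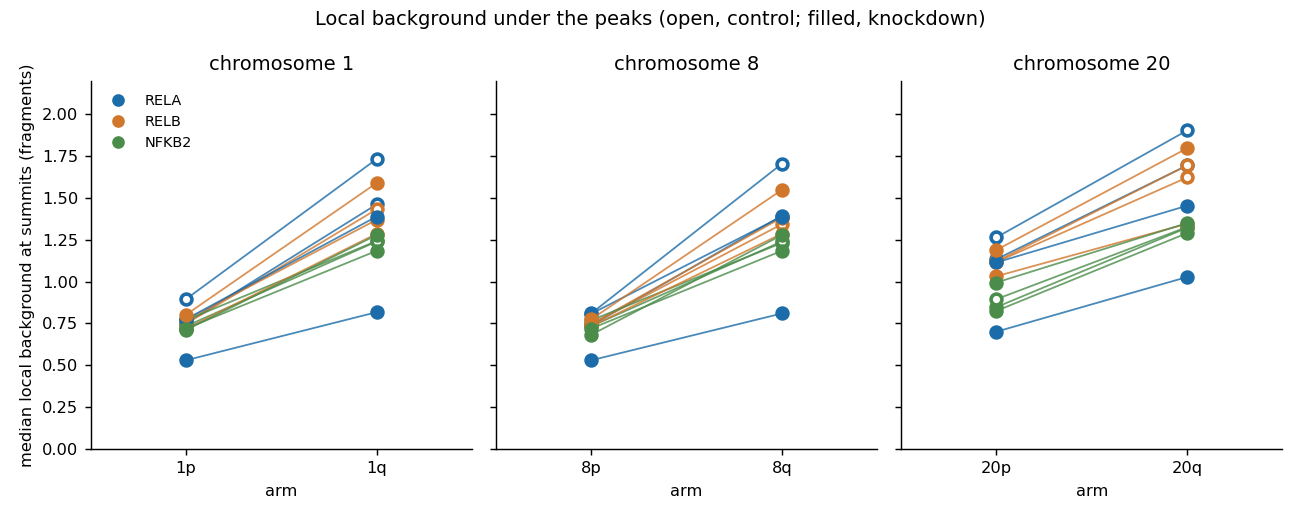
Each line joins the median local background (in fragments) at the summits of a short arm and of its long arm in a library, with open points for control and filled points for knockdown. All 12 lines rise from short to long arm on each chromosome, and the lowest line throughout is knockdown RELA replicate 2.

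Summits on the long arms rested on more fragments. In the median library the mean fragment number at a summit was 4.58 on 1q, 4.57 on 8q and 4.87 on 20q, against 3.11 on 1p, 3.09 on 8p and 3.99 on 20p. In control RELA replicate 1, summits with at least 5 fragments made up 50.6% of peaks on 1q and 7.93% on 1p. Across libraries this share was between 12.2% and 70.5% on 1q, 11.9% and 69.6% on 8q, and 17.1% and 76.8% on 20q. It was 0.828% to 23.7% on 1p, 3.0% to 33.9% on 8p and 3.99% to 52.8% on 20p, so the ranges over libraries overlapped. The mean fragment number was higher on the long arm in 12 of 12 libraries for each chromosome, by factors of 1.32 to 1.54, 1.27 to 1.53 and 1.17 to 1.28.

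The fold enrichment did not follow this difference. Its median was between 2.14 and 2.58 on 1q, 2.15 and 2.58 on 8q, and 2.11 and 2.59 on 20q. The ratio of long to short arm lay between 0.930 and 1.04 on chromosome 1, 0.938 and 1.05 on chromosome 8, and 0.947 and 0.998 on chromosome 20. Among listed peaks, fragments and background were therefore higher together, and the fold enrichment was nearly the same on both arms. A summit was listed only if it passed the p threshold, which asks for more fragments at a higher background. Peaks selected in this way cannot show whether enrichment over background differed between the arms, and this was not tested.

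With a p threshold of 0.05, the fragments that a summit needs depend on its background. A summit of 2 fragments passes only at a background below 0.818, a summit of 3 below 1.37 and a summit of 4 below 1.97. Peaks of 2 fragments were scarce on the long arms, with a median over libraries of 0.524 per Mb on the 3 arms against 42.7 per Mb on the 3 short arms. Peaks of exactly 3 fragments stood at 26.1 per Mb on the long arms and 73.3 on the short arms. From 4 fragments the order turned, with 58.4 against 36.9 per Mb for 4 and 44.8 against 10.9 for 5. Peaks of 8 or more fragments were found at 1.60 per Mb on the long arms and 0.147 on the short arms. The densities of 1q and 1p thus compared differently at each fragment number, with median log2 ratios of -5.11 at 2 fragments, -1.61 at 3, 0.49 at 4 and 5.09 at 8 or more. On chromosome 20 the turn came at 5 fragments, where the median log2 ratio was 0.29 after -0.44 at 4.

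Counted only from 5 fragments up, peaks per Mb were higher on the long arm in 12 of 12 libraries, by 3.90 to 14.1 times on 1q, 3.17 to 4.53 times on 8q and 1.43 to 2.42 times on 20q. Counted only up to 4 fragments, they were lower in 12 of 12 libraries on 1q and 20q and in 11 of 12 on 8q. The exception was knockdown RELA replicate 2, the library with the lowest background.

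**Figure D3:**
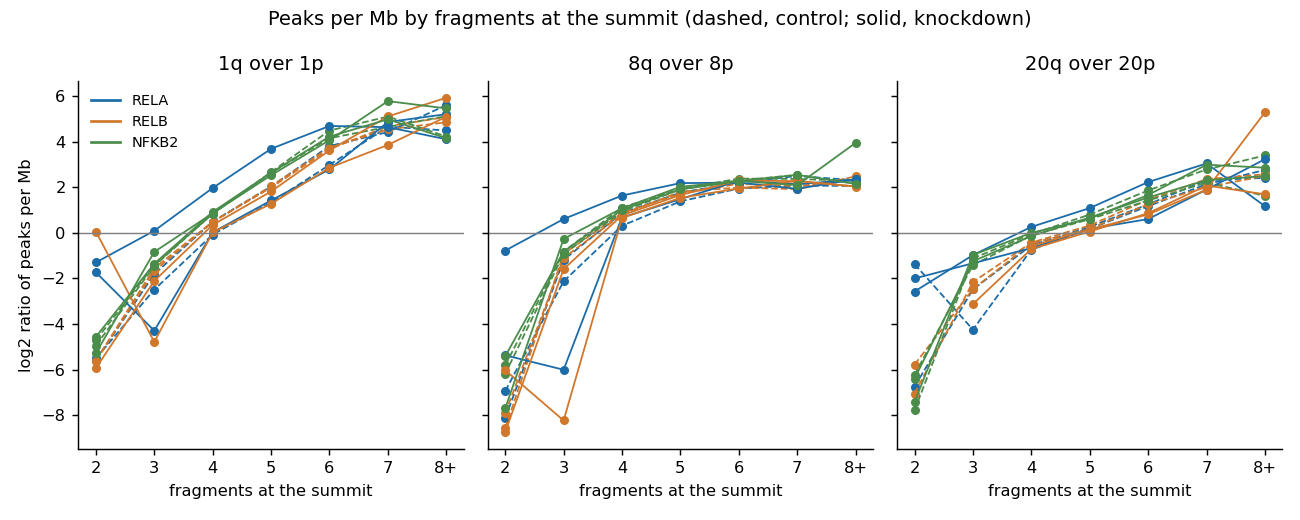
The log2 ratio of peaks per Mb, long arm over short arm, is plotted against the fragments at the summit (8+ stands for 8 or more) for each library, dashed for control and solid for knockdown; classes empty on either arm are not drawn. In most libraries the lines cross 0 between 3 and 4 fragments on chromosomes 1 and 8 and between 4 and 5 on chromosome 20.

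The background was raised along nearly the whole of each long arm. Bins of 5 Mb were compared after dividing each bin's median background by that library's median over the chromosomes, and the mean of 12 libraries was taken. The median bin stood at 1.53 on 1q, 1.47 on 8q and 1.64 on 20q, and 85.7%, 81.9% and 94.5% of the 474 other autosomal bins lay below these values. Some autosomal bins outside the 3 chromosome arms and their partners were higher, up to 2.91. Bins of 1p were at 0.705 to 0.880, bins of 20p at 1.05 to 1.22.

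The ends of 1q were lower than its middle. The bin from 145 to 150 Mb, next to the centromeric heterochromatin, was at 1.18, the next at 1.69, and the bins from 240 Mb on at 1.18 and 1.13. Between 185 and 200 Mb on 1q the background dipped to 1.34, 1.35 and 1.37. On 8q the full bins were between 1.33 and 1.57. On the short arm of chromosome 8 the bins ran from 0.234 between 6 and 11 Mb to 1.50 between 36 and 41 Mb and 1.65 between 41 and 43 Mb. Leaving out the 7 Mb of 8p nearest the centromere, its part of highest background, raised the 8q over 8p log2 ratio of median background to 0.94. A ratio without the low bin between 6 and 11 Mb is not given here.

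Within the long arms, bins with a high background tended to hold fewer peaks, but the ends of 1q did not follow this. The densest bins of 1q lay between 185 and 200 Mb, at 1.19 to 1.31 times the density of the whole arm, and hold 2.2 to 3.4 protein-coding genes per Mb. Its sparsest bins were 200 to 205 Mb, at 0.753 ± 0.085 (SD, n = 12), and 150 to 155 Mb, at 0.814 ± 0.068, which hold 13.4 and 32.2 protein-coding genes per Mb. On 8q the densest bin was 111 to 116 Mb, at 1.25 ± 0.11 with 0.4 genes per Mb, and on 20q 52 to 57 Mb, at 1.29 ± 0.13 with 3.4 genes per Mb. The next densest bins of 20q held 6.6 and 15.4 genes per Mb, and the sparsest full bin of 8q, 126 to 131 Mb, stood at 0.872 ± 0.055 with 1.4 genes per Mb. Among full bins, density thus did not follow gene content alike on the 3 arms. The shorter last bins of 8q (141 to 145 Mb) and 20q (62 to 64 Mb) were sparser still, at 0.448 ± 0.12 and 0.607 ± 0.13. They hold 24.75 and 27 genes per Mb. The last bin of 1q (245 to 248 Mb) stood at 0.913 ± 0.13 with 10.7 genes per Mb, over a background of only 1.13. At a background of 1.18 each, the 1q bins from 240 to 245 Mb and from 145 to 150 Mb stood at 0.883 and 1.03. Over the 45 full bins, Spearman's rho between density and background was between -0.79 and -0.49 in the 12 libraries, a description only, since the bins share a library and both values come from the same peaks.

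**Figure D4:**
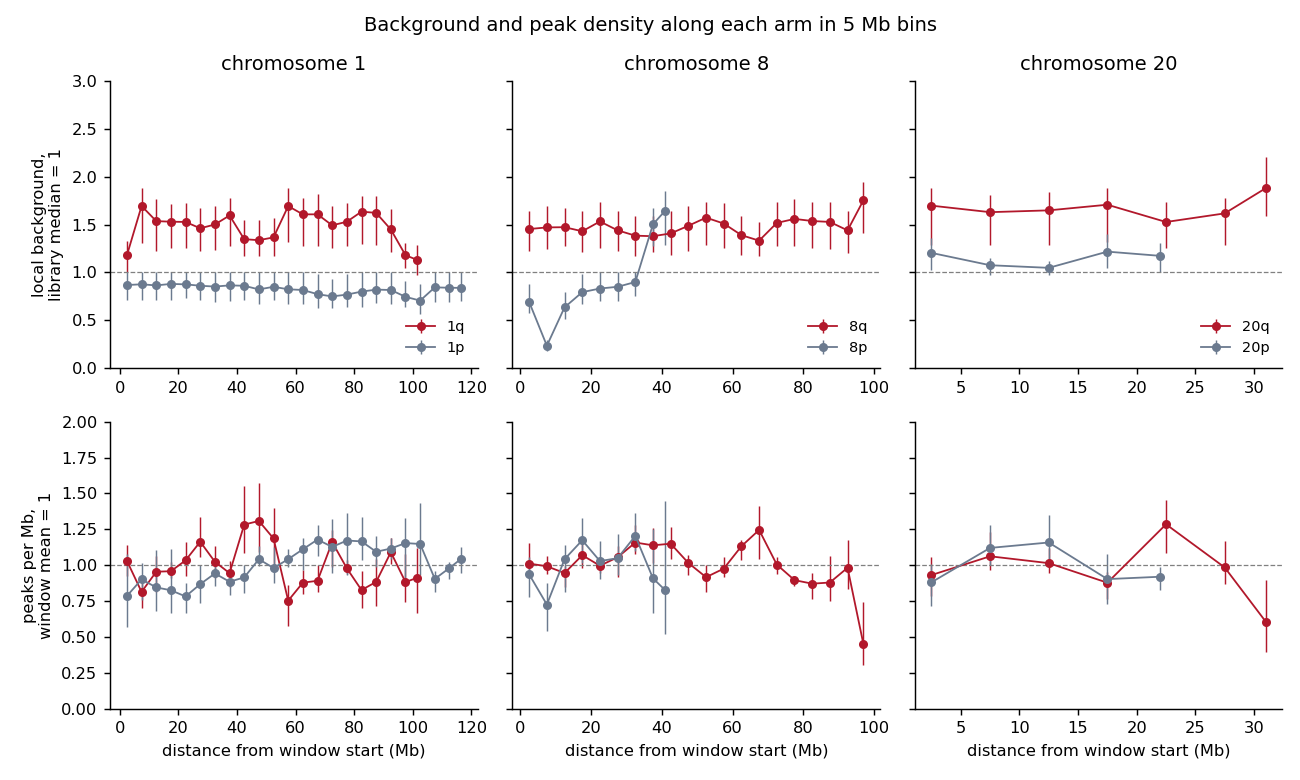
The upper panels give the local background and the lower panels the peaks per Mb in 5 Mb bins against the distance from the start of each window in Mb, as the mean of 12 libraries with bars from the lowest to the highest library; backgrounds are relative to the library median and densities to the window mean. The long arms stay above the short arms in background except at the last bins of 8p, while the density curves of both arms cross.

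DAB2IP knockdown was compared with control through the log2 ratio of peaks per Mb on the 3 long arms together over the 3 short arms. The RELA control libraries had ratios of -0.05 and -0.12 and the knockdown libraries 0.60 and -0.08, so the groups overlapped. With RELB the ratios were -0.15 and -0.09 in control and 0.47 and -0.02 in knockdown, and both knockdown libraries lay above both controls. With NFKB2 they were -0.64 and -0.57 in control and 0.01 and -0.62 in knockdown, again with overlap. In each antibody replicate 1 of the knockdown stood apart from the other 3 libraries. The differences, knockdown minus control, were 0.35 (RELA, exact permutation p = 0.67), 0.35 (RELB, exact permutation p = 0.33) and 0.30 (NFKB2, exact permutation p = 0.67), where 0.33 is the smallest p that 2 libraries against 2 can give. Without knockdown replicate 1 they were 0.009, 0.10 and -0.016. The RELA and RELB lists of that preparation are the short ones.

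The background ratio differed less between conditions. For RELA the log2 ratio of median background, 3 long arms over 3 short arms, averaged 0.88 in control and 0.73 in knockdown, a difference of -0.16 without overlap of the groups (exact permutation p = 0.33). The difference was 0.03 with RELB and 0.06 with NFKB2, and those groups overlapped. The higher background of the long arms was thus present in both conditions.

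Regions called in both knockdown libraries and absent from both control lists were then counted after merging overlapping peaks of an antibody. For RELA, 905 of 122606 merged regions on the long arms (0.738%) were knockdown-only, against 0.566% over all chromosomes, 0.450% on the short arms and 0.445% on 20q. For RELB 518 of 114232 (0.453%) were knockdown-only, against 0.347% over all chromosomes and 0.256% on the short arms. For NFKB2 2822 of 140556 (2.01%) were knockdown-only, against 2.09% and 1.98%. Regions of the opposite kind, called in both controls only, made up 2.17% (RELA), 2.60% (RELB) and 2.00% (NFKB2) on the long arms, where the shares over all chromosomes were 2.44%, 2.96% and 2.93%. No test was made on these shares, since regions of a library are not replicates. The long arms held 9.97% of the peaks of knockdown RELA replicate 1 and 9.58% of those of knockdown RELB replicate 1, more than the 5.63% to 7.72% of the other libraries, and a knockdown-only region of RELA or RELB had to be in these lists.

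The mean log2 ratio of peaks per Mb, 3 long arms over 3 short arms, came to 0.09 (RELA), 0.05 (RELB) and -0.46 (NFKB2), with 4 libraries each. The spread of these means was larger than under most exchanges of antibodies within preparations (exact permutation p = 0.019). Preparations differed too, with means of -0.28 and -0.26 in control and 0.36 and -0.24 in knockdown (exact permutation p = 0.040). NFKB2 was lower than RELA and RELB in all 4 preparations. On 20q the antibodies did not differ beyond the spread, with means of -0.33, -0.23 and -0.35 (exact permutation p = 0.42). The RELA and RELB means were above 0 only with the short lists, and were -0.083 and -0.087 over the other 3 libraries of each. Over the 3 preparations without a short list, the NFKB2 mean was -0.61. There the spread between antibodies stayed at 0.31, while that between preparations fell from 0.31 to 0.022. With fewer orderings to compare, neither spread passed (exact permutation p = 0.11 between antibodies and p = 0.64 between preparations). For the ratio of median background neither spread passed (exact permutation p = 0.39 between antibodies and p = 0.85 between preparations). Among peaks of at least 5 fragments the spreads of the density ratio did not pass either (exact permutation p = 0.22 and p = 0.46).

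Peaks on the long arms were shared more between antibodies of a preparation than between replicates of an antibody. Overlap of a pair was the length that both lists cover as a share of the length that at least 1 of them covers. It averaged 3.43% between libraries of the same preparation (12 pairs) and 1.88% between replicates (6 pairs). It was 1.95% between conditions for the same antibody (12 pairs) and 1.92% for pairs that share neither antibody nor preparation (36 pairs). Single lists covered 0.627% to 4.96% of 1q, 0.672% to 5.48% of 8q and 0.532% to 3.85% of 20q. Lists placed at random would also share some length. That level was not computed, so these averages alone do not show shared binding sites, and only their differences are compared. Sharing a preparation raised the overlap by 1.51 percentage points (exact one-sided permutation p = 0.00174, the smallest that 576 orderings can give). On the short arms the same difference was 1.59 points.

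Recurrent regions were few. Merged over all 12 libraries, the long arms held 263773 regions, of which 64.0% came from a single library. In at least 6 libraries there were 2266 regions (0.859%), compared with 1.5% over all chromosomes, and the shares were 0.914% on 1q, 0.940% on 8q and 0.374% on 20q. On 17 regions at least 10 libraries had a peak, 10 of them on 1q, 6 on 8q and 1 on 20q. That is 0.00644% of the regions of the long arms, against 0.0331% over all chromosomes and 0.00999% on the short arms (23 regions). No region of the long arms was called in all 12.

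The most recurrent region of 1q spanned chr1:146348841-146351012, within the pseudogene SEC22B4P, and was called in 11 libraries with 2 to 6 fragments at the summit. The others among the 5 most recurrent of 1q lay within PDE4DIP, LOC124904395, NOTCH2NLA and ZNF670, a zinc finger gene, each in 10 libraries. All but the last lie between 145 and 150 Mb, where 1q carries recently duplicated families such as NBPF and NOTCH2NL, in which reads can be placed on the wrong copy. At these 4 regions the background was low, between 0.079 and 0.967 fragments, against an arm median of 0.817 to 1.73. On 8q a region within SNTG1, which encodes a syntrophin, was called in 11 libraries with 2 to 5 fragments, and a region in CSMD3, a very large gene, in 10 libraries with 3 to 7. On 20q a region within CDH4, which encodes R-cadherin, was called in 10 libraries with 1 to 3 fragments at a background of 0.129 to 0.260. Regions in ZHX3, a zinc finger and homeobox gene, and ZFP64, a zinc finger gene, were called in 9 and 8 libraries.

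Few peaks passed multiple testing. A q of at most 0.05 was reached by 35 of 426717 peaks on the long arms, 0.00820% (exact 95% confidence interval 0.00571% to 0.0114%, counting error only), against 0.0249% of all peaks. There were 16 on 1q, 19 on 8q and 0 of 47461 on 20q, where the interval reaches 0.00777%. The short arms held 34 (0.00868% of their peaks), of which 22 lay on 8p (0.0257%). Control libraries gave 20 of the 35 and knockdown libraries 15, counts that were not set against the peaks listed in each condition.

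On 1q, 10 of the 16 lay between 145 and 150 Mb, in or near NBPF10, NBPF19, NOTCH2NLA, PDE4DIP, NUDT4B, SEC22B4P and HYDIN2. Of these, 8 had only 4 to 6 fragments, over a background of 0.061 to 0.273. The smallest q there was that of control RELA replicate 2 at chr1:146102094-146102368 in NBPF10, with a -log10 q of 3.43. The smallest q of 1q (-log10 q of 3.62) and the highest fragment number among these peaks, 23, were found at chr1:161454068-161454258 in control NFKB2 replicate 1, where the background was also high at 4.41. Single peaks in NOS1AP, SRGAP2, RHOU and FMN2 were each found in 1 library. On 8q, 14 of the 19 lay within 167 kb, between 85 and 86 Mb, and came from 8 libraries. They held 9 to 59 fragments and stood over backgrounds of 0.810 to 20.3, with fold enrichments of 2.69 to 5.53. The median background of 8q was between 0.810 and 1.71 over libraries. Whether this stretch is repeated sequence, where reads of several copies can pile up, was not examined. At chr8:85734403-85734668, 10 libraries had a peak of 19 to 38 fragments, and 4 of them (control RELA 2, knockdown RELB 1, knockdown RELB 2 and knockdown NFKB2 1) reached a q of at most 0.05. Most other peaks of small q stood over a background below the arm median of their library, and a few over one above it. Those in NOS1AP (1.11) and FMN2 (0.997), both of control RELB replicate 2, lay below its 1q median of 1.43. The SRGAP2 peak of knockdown RELB replicate 2 (0.885) lay below its 1q median of 1.59. The RHOU peak of knockdown RELA replicate 2, with 4 fragments, stood over only 0.078, against a 1q median of 0.817. The TMEM67 peak of knockdown RELB replicate 2 (1.19) lay below its 8q median of 1.55. The FAM83A peak of control RELB replicate 1 (1.40) lay above its 8q median of 1.34.

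Genes of the NF-κB pathway had no more peaks than the arms around them. Over the 14 genes of that list, 542 peaks were counted within gene spans in 12 libraries, 0.957 times the number at the density of their arms. Every one of these peaks had a q of 1. SELE had the highest ratio at 1.56, with 0 to 6 peaks per library (median 3.5). The control libraries had 4 and 5 SELE peaks with RELA, 6 and 2 with RELB, and 4 and 3 with NFKB2, and the knockdown libraries 0 and 3, 0 and 5, and 2 and 4. TNFRSF11B, which encodes the decoy receptor osteoprotegerin, was next at 1.46. It had 7 to 13 peaks in the control libraries and 1 to 8 in the knockdown libraries, and the groups overlapped. The RELA and RELB lists of knockdown replicate 1 are the short ones, and the counts of SELE and TNFRSF11B were not scaled to list length. IKBKE, an IKK-related kinase, had 20 peaks in all at 0.389 times the arm density. CD40, a receptor that activates NF-κB, had 23 peaks at 1.14 times, and RIPK2, a signalling kinase of innate immunity, 72 at 1.05 times. PTGS2, the inducible cyclooxygenase, had 19 at 0.987 times. TRAF5, an adaptor of TNF receptors, had 71 at 0.779 times. MMP9, a secreted protease, had 7 at 0.489 times and CEBPB 8 at 1.31 times.

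The 21 breast cancer genes and genes of the study's question gave 3660 peaks, 1.06 times the number at arm density. RASAL2, a RasGAP related to DAB2IP, had 872 peaks over its span of 385 kb, 1.25 times the arm density, with 438 in knockdown and 434 in control libraries. Its lowest count was 22 in knockdown RELB replicate 1, a short list, and its highest 132 in knockdown RELA replicate 2. The counts of 438 and 434 were not scaled to list length, so they do not compare the conditions at equal numbers of peaks. The best RASAL2 peak had a -log10 q of 0.349. NCOA3 had 326 peaks at 1.40 times and 6 to 39 per library. MCL1, an antiapoptotic BCL2 relative, had 18 peaks at 1.41 times, and MYC had 12 at 0.648 times, with 0 to 2 in each library. MDM4 had 66 peaks at 0.834 times, ZNF217 46 at 0.950 times and AURKA, a mitotic kinase, 42 at 1.14 times. MUC1, an epithelial mucin, had 4 at 0.243 times, the fewest for its size in this list. None of the 35 genes had a peak with a q of at most 0.05. Their median background was 1.29 to 2.19 times the library median, so all lay above the middle of the chromosomes.

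Summits were not concentrated at genes. Protein-coding gene spans cover 48.8% of 1q and held 45.7% to 48.4% of summits (median 47.1%), below the base share in 12 of 12 libraries. On 20q they cover 48.0% and held 43.3% to 47.9%, also below in 12 of 12, and on 8q they cover 38.5% and held 36.9% to 39.1%. The 1p spans cover 50.8% and held 50.2% to 52.0%. Within 1 kb of a protein-coding start, summits on 1q stood at 0.614 to 1.01 times the number at even density (median 0.790), and on 20q at 0.503 to 1.26 times (median 0.824). On 1p the median was 0.836, so low values near starts were found on short arms too.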

How the data were processed

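Peak lists of 12 T47D libraries were used as deposited. According to the labels, the authors processed reads with CASAVA 1.8, BWA 0.7.12 and MACS2 2.1.0 on hg38. Per peak, the deposited columns hold a score (the -log10 p-value times 10, cut to a whole number), a ratio (fold enrichment over local background at the summit), the -log10 of p and of q, and a summit offset in bp, all made by the authors' peak caller. The inputs have no list. Depth is unknown.

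Intervals listed with several summits were counted once by their best summit. Fragments and background were recovered from fold enrichment (pseudocount 1) and the Poisson p-value. Ratios were formed within libraries. Conditions, antibodies and preparations were compared by exact permutation. The method was tested on simulated data. Peaks were merged at 1 bp of overlap. Gene spans came from a RefSeq table of GRCh38.p14. Regions are not replicates. Tools were matplotlib 3.10.9, scipy 1.17.1, pandas 2.3.3, numpy 2.4.6 and Python 3.11.15.

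The set of peaks and the lists of genes were chosen with earlier results of these data known. The genes named are 14 NF-κB and 21 breast cancer or study genes on these arms, with the 5 most recurrent regions and the 3 smallest q of each arm, the promoters with summits from most libraries, and the 3 densest and 3 sparsest bins. Alternatives were stricter thresholds, equal list lengths, other windows and measures, the replicate block, and leaving out libraries.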

Additional observations from a re-analysis of the deposited data

Results flagged for a closer look

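Intervals longer than 5 kb were left out by the rule on peak length. On 1q, 8q and 20q such intervals were found in 2 libraries, with 9 in knockdown RELA replicate 2 and 8 in knockdown NFKB2 replicate 2, and 0 in each of the 6 control libraries and the other 4 knockdown libraries. They drew attention because they lie outside the main measurement and are above the level in control. On 1q, 8q and 20q they numbered 5, 2 and 2 for RELA and 4, 3 and 1 for NFKB2, with a median length of 26.4 and 38.7 kb, a longest interval of 152.0 and 151.9 kb and a total of 0.550 and 0.554 Mb. The short arms held 103 and 85 in the same libraries. Both libraries belong to knockdown preparation 2. Groups of 2 libraries are too small to test for outlying samples.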

How the results depend on the processing

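With peaks per Mb, the direction of the arm ratios depended on the peaks counted. With at least 5 fragments at the summit the log2 ratio became 2.68 for 1q and 0.84 for 20q. With a q of at most 0.05 (counts summed over libraries) it was 0.74 for 1q and -1.45 for 8q, and for 20q it could not be formed. With the 20000 smallest p-values it was 0.12 for 1q and -0.051 for 8q. For 8q it was also -0.028 with a -log10 p of at least 2 and, without the 2 libraries that the peak caller scaled down, -0.049 as a mean of preparation means and -0.086 as a mean of 10 libraries. The sign-flip tests of the main values cannot give a p below 0.125, so they could not set these ratios apart from 0. The cause of the sign changes was not tested. Leaving out each library in turn gave, as means of the 4 preparation means, -0.19 to -0.10 for 1q, 0.02 to 0.10 for 8q and -0.32 to -0.27 for 20q. As means over the remaining libraries, chosen after seeing the data, the ranges were -0.22 to -0.099, -0.018 to 0.096 and -0.35 to -0.25, the lowest without knockdown RELA replicate 1 for 1q and 8q and without knockdown RELB replicate 1 for 20q.

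Knockdown minus control turned to -0.68 for RELA with a q of at most 0.05, and to -0.17 for RELB and -0.039 for NFKB2 with at least 5 fragments. Leaving out each library gave ranges of 0.009 to 0.69 (RELA), 0.10 to 0.59 (RELB) and -0.016 to 0.62 (NFKB2), the lowest each time without knockdown replicate 1. With the replicate number as a replicate block the differences stayed at 0.35, 0.35 and 0.30 (exact permutation p = 0.50, 0.50 and 1.00). Same-numbered libraries deviated together over 48 bins with r = -0.36 for RELA, 0.42 for RELB and 0.40 for NFKB2, so the numbers were not shown to pair the samples. Crossing the pairs cannot change the mean difference, and no call was made either way.

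The spread between antibodies fell to 0.21 (exact permutation p = 0.22) with at least 5 fragments and 0.16 (exact permutation p = 0.11) with the 20000 smallest p-values, and that between preparations to 0.17 (exact permutation p = 0.46) with at least 5 fragments. Over the 3 preparations without a scaled library, an alternative added after seeing the data, they were 0.31 (exact permutation p = 0.11) and 0.022 (exact permutation p = 0.64). Over all 4 preparations both spreads were 0.31. The log2 ratio of background stayed above 0 in all alternatives, which were chosen after seeing the data: by mean, 10th percentile, stricter peaks or fewer libraries it was 0.81 to 0.87 on 1q, 0.079 to 1.87 on 8q and 0.48 to 0.55 on 20q. Unknown depth limits all of these values.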
